A study of Mus musculus with 8 samples.

Results

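Chemokines and chemokine receptors were taken as every gene probe of the array whose gene name begins with Ccl, Cxcl, Cx3cl, Ccr or Cxcr followed by a digit. These were 60 probes of 48 genes, of 41174 gene probes in all. Of them, 30 probes of 25 genes were well above background in at least 1 RNA extract, and 18 probes of 15 genes were kept for the test, which asked for 2 of the 3 extracts of either genotype, among 22642 probes kept on the whole array. The arrays compared Lats2-/- with Lats2+/+ MEFs (fibroblasts cultured from mouse embryos) from 3 litters numbered 112, 116 and 121. Both genotypes carried the strain name C57BL/6J, were kept in DMEM with fetal bovine serum, and had no treatment. Each litter gave 1 Lats2-/- and 1 Lats2+/+ extract, each named as 1 clone in the labels, so that a ratio between the genotypes within a litter is also a difference between 2 clones. The product of Lats2 is a Hippo pathway kinase, and every ratio below is the log2 ratio of Lats2-/- over Lats2+/+, averaged over the dye-swapped arrays of a litter.

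Chemokines are small secreted proteins that steer the migration of cells along a gradient, and the names CXC, CX3C and CC refer to the spacing of their first cysteines. They act through receptors with many membrane-spanning helices that signal through inhibitory G proteins, and they are held on surfaces and matrix by heparan sulfate. Fibroblasts are a known source of Cxcl12, which acts on Cxcr4, and of the monocyte chemoattractant Ccl2, and many chemokine genes lie in clusters and respond to NF-kappaB or interferon.

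RefSeq promoter windows (assembly GRCm38.p6, 250 bases before to 50 bases after the transcription start) were at hand for 19 of the 25 genes, as 22 windows. They are shown for Cxcl12, the one gene that was higher in Lats2-/- beyond an unadjusted p of 0.05, and for Cxcl1, Cxcl10 and Ccl17, which moved by over 2-fold in litters 116 and 121 and held a match. Letters in capitals are matches, on either strand, to GGGANTTNCC (a form of the NF-kappaB site), GAAANNGAAA (the core of the interferon-stimulated response element) or GGAATG (the site of TEAD factors, the DNA-binding partners of the Hippo effector YAP); no match overlapped another in these windows. The windows lie at chr6:117168285-117168584 (plus strand) for Cxcl12, chr5:90890995-90891294 (plus strand) for Cxcl1, chr5:92348840-92349139 (minus strand) for Cxcl10 and chr8:94810203-94810502 (plus strand) for Ccl17.
Cxcl12: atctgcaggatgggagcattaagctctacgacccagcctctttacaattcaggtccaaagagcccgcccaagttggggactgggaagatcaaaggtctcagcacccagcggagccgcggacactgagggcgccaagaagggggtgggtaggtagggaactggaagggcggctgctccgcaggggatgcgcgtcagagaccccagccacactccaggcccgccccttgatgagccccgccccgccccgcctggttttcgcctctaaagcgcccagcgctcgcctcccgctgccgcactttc
Cxcl1: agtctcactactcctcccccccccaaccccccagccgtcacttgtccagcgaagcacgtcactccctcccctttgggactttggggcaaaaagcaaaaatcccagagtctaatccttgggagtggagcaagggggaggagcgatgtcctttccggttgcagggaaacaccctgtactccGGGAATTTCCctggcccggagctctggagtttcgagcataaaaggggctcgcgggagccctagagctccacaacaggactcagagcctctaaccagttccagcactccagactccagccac
Cxcl10: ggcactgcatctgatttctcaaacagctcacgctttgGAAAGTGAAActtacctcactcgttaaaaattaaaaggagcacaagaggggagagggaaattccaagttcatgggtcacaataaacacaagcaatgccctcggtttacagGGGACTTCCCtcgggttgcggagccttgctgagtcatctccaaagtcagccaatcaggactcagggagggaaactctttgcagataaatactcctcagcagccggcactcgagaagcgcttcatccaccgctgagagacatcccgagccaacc
Ccl17: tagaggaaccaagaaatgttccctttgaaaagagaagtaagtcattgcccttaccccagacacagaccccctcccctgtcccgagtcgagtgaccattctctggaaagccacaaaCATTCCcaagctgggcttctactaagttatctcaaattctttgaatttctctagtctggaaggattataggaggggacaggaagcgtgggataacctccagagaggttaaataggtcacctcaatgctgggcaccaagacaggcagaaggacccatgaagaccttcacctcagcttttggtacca
The NF-kappaB form began at position -71 from the start of Cxcl1 and at -103 from that of Cxcl10, and was in 2 of the 22 windows and in 1.2% of 32851 promoter windows of the same length. The interferon element began at -213 in Cxcl10, and was in 3 of the 22 windows and 3.44% of all. The TEAD site began at -135 in Ccl17, on the opposite strand, and was in 2 of the 22 windows and 14.7% of all. The window of Cxcl12 held none of these letters. A match is a description of the letters only.

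The arrays lay on 2 slides, of which slide 2 held litter 121 and nothing else, so that litter 121 and slide 2 cannot be told apart. The share of gene spots well above background in a channel was between 52.9% and 61.3%. Of the 4 Lats2 probes, the most upstream was lower in the extract labelled Lats2-/- of each litter (log2 ratios of -1.33 in litter 112, -1.05 in 116 and -0.56 in 121), whereas the other 3 were lower in litters 112 and 116 and higher, by 0.80 to 1.17, in litter 121; which exons the allele lacks is not given in the sources used here, so that probes outside them check nothing. All 14 fibroblast markers were above background in at least 1 extract, and their ratios moved with the litter: litter 112 had a median of 0.14, litter 116 of 2.22 and litter 121 of -0.95. The part of these marker differences in the ratios below was not tested. In bulk extracts, fewer cells of a type and less RNA per cell cannot be told apart.

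Cxcl12 was higher in Lats2-/- in all 3 litters, and Ccl17, Ccl9, Cxcl1 and Cx3cl1 were higher by over 2-fold in litters 116 and 121 but not in 112. The monocyte chemoattractants Ccl7 and Ccl8 and the interferon-inducible Cxcl10 were higher in litter 116 and lower in litter 121. Of the 18 probes kept, 14 (12 genes) differed by at least 2-fold in 1 or more litters, against 13.3% of all probes kept. A probe can be kept through the genotype in which it is bright, but among the 11 probes of 8 genes that were above background in all 6 extracts, 8 probes still differed by at least 2-fold in 1 or more litters, against 12.1% of all such probes. The SD of the ratio over litters had a median of 1.36 over the 18 probes and 0.25 over all probes kept, and 17 of the 18 were above the latter value. The SD between arrays of the same 2 extracts was lower, with a median of 0.13 and a highest value of 0.28.

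**Figure D1:**
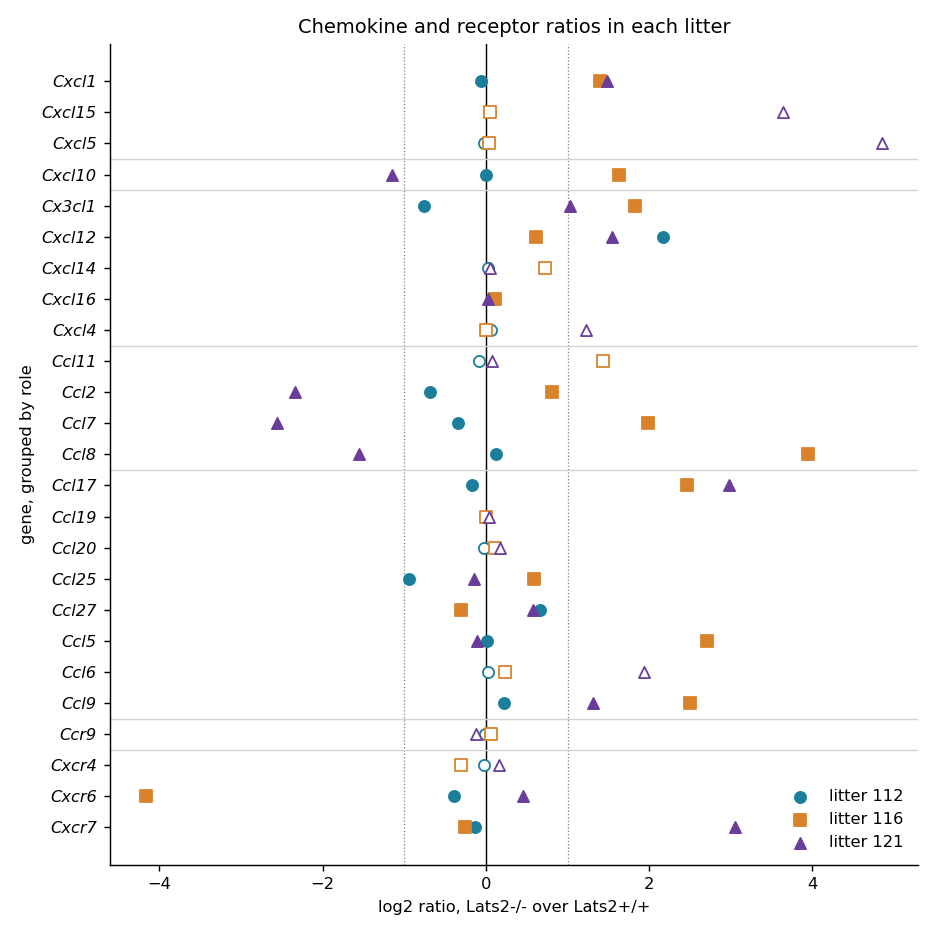
Log2 ratio of Lats2-/- over Lats2+/+ (horizontal axis) for the 25 genes above background in at least 1 extract, grouped by role (vertical axis), with 1 point for each litter. Filled points are genes kept for the test and open points genes too dim for it; dotted lines mark 2-fold. Cxcl12 is the one kept gene with all 3 points well to the right of 0, while Ccl7, Ccl8 and Cxcl10 have points beyond 2-fold on both sides.

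Across the 3 litters, 2 of the 18 probes passed an unadjusted p of 0.05 in limma, against 6.84% of all probes kept, and both were probes of Cxcl12. They were also the probes changed by at least 2-fold at that p, against 0.835% of all. After Benjamini-Hochberg adjustment over the 22642 probes, 0 of the 18 passed, as 0.0% of all probes did. The mean ratio had a median of 0.70 over the 15 genes and of 0.01 over all 14726 genes kept. As Cxcl1 and Cxcl16 were kept through Lats2-/- alone, and Ccl5 and Cxcl10 through Lats2+/+ alone, the median is not a measure of direction. It was 0.51 over the 8 genes above background in all 6 extracts, 0.43 over the 25 genes above background in any, and 0.05 over the 15 genes without litter 116. A ratio of 1 sign in all 3 litters was seen for 4 of the 18 probes (22.2%; Cxcl12, Ccl9 and the dim Cxcl16), a share near the 29.7% of all probes kept.

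Cxcl12, the ligand of Cxcr4 and of Cxcr7, was bright in every extract. On probe A_51_P172502 (mm8 chr6:117146828-117146887, plus strand), the log2 signals of the Lats2-/- and Lats2+/+ extracts were 13.98 and 11.81 in litter 112, 12.84 and 12.22 in litter 116, and 13.84 and 12.30 in litter 121. All 3 Lats2-/- signals were above all 3 Lats2+/+ signals. The mean log2 ratio was 1.44 ± 0.79 (SD, n = 3 litters), or 2.72-fold, and limma gave an unadjusted p of 0.0147, for an adjusted p of 0.711 over all probes kept. The second probe, A_52_P685021 (chr6:117140075-117140134), lies upstream of the first and gave signals of 12.44 and 9.69 in litter 112, 10.86 and 9.94 in litter 116, and 11.58 and 10.39 in litter 121. Its mean ratio was 1.63 ± 0.99 (SD, n = 3 litters), or 3.08-fold, and limma gave an unadjusted p of 0.0198, for an adjusted p of 0.711 over all probes kept. Both probes showed the smallest difference in litter 116, and without litter 121 only 1 of them passed the unadjusted threshold. These 2 probes were the ones of the 18 in which the signals of the genotypes did not overlap, against 6.13% of all probes kept.

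**Figure D2:**
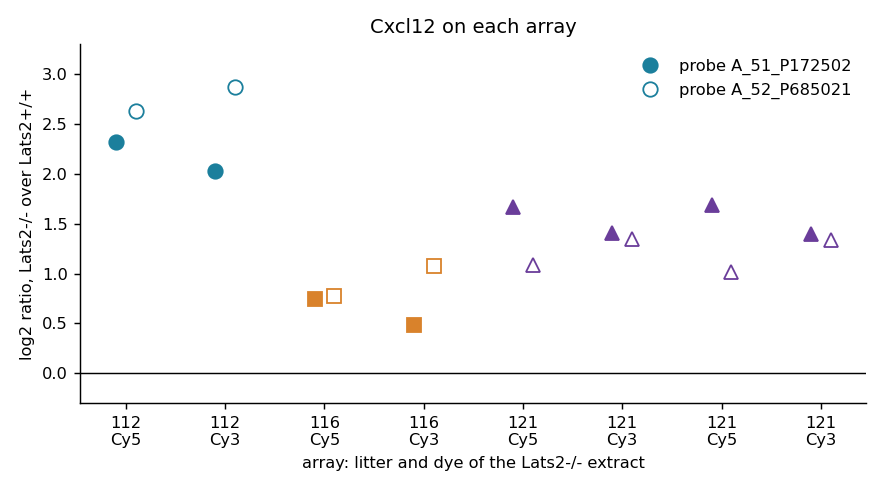
Log2 ratio of Cxcl12 (vertical axis) on each of the 8 arrays (horizontal axis, with the litter and the dye of the Lats2-/- extract), for both probes. All points lie above 0 in either dye. On probe A_51_P172502 the points of litter 116 (0.48 and 0.74) are the lowest, while on A_52_P685021 one of them (1.08) lies among those of litter 121.

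The other CXC and CX3C ligands were uneven. Cx3cl1 (fractalkine), a membrane-bound ligand known to attract monocytes through Cx3cr1, had Lats2-/- and Lats2+/+ signals of 9.36 and 10.12 in litter 112, 13.10 and 11.28 in litter 116, and 11.89 and 10.85 in litter 121. It was thus higher by over 2-fold in litters 116 and 121 and lower in 112, and its mean ratio of 0.70 ± 1.32 (SD, n = 3 litters) had an unadjusted p of 0.281 in limma. Cxcl16, the ligand of Cxcr6, was dim and above background in 2 Lats2-/- extracts and no Lats2+/+ extract, with ratios between 0.03 and 0.12 and an unadjusted p of 0.497 in limma. Cxcl14, a chemokine of epithelia and fibroblasts, was above background in 1 extract, the Lats2-/- extract of litter 116, with ratios of 0.02, 0.72 and 0.05 in litters 112, 116 and 121. Cxcl4 (platelet factor 4, now Pf4) was above background in Lats2-/- of litter 121 and in no other extract. It was at least 2.27-fold higher there than in Lats2+/+, whose signal was not well above background and so gives only a bound. Cxcl13 was not well above background in any extract.

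The ligands with the ELR motif, known for recruiting neutrophils through Cxcr2, were seen in 2 litters (Cxcl1) or in litter 121 alone (Cxcl5 and Cxcl15). Cxcl1 (keratinocyte chemoattractant) had Lats2-/- and Lats2+/+ signals of 5.94 and 6.00 in litter 112, 7.83 and 6.44 in litter 116, and 7.39 and 5.90 in litter 121. It was seen above background in Lats2-/- of litters 116 and 121 and in no Lats2+/+ extract, so that it was kept through Lats2-/- alone, and in litter 121 it was at least 2.54-fold higher. Its mean ratio was 0.94 ± 0.87 (SD, n = 3 litters), and limma gave an unadjusted p of 0.0688. The size of this mean depended on the background correction, at 1.43 with an offset of 16 and 2.94 with the deposited value table. Cxcl5 and Cxcl15 (lungkine) were too dim for the test, and stood out in litter 121. Cxcl5 was between 6.07 and 6.17 in 5 extracts and at 11.01 in the Lats2-/- extract of litter 121, at least 27.0-fold above its Lats2+/+ littermate. Cxcl15 was at 10.28 in that extract on its brighter probe and at 6.63 in the Lats2+/+ extract, a ratio of 3.64, and its other probe gave at least 16.4-fold. In litters 112 and 116 the ratios of both genes lay between -0.06 and 0.05. Cxcl2 was not well above background in any extract.

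Of the interferon-inducible CXC ligands, which attract T cells through Cxcr3, Cxcl9 and Cxcl11 were not well above background in any extract. Cxcl10 had Lats2-/- and Lats2+/+ signals of 5.88 and 5.87 in litter 112, 8.10 and 6.46 in litter 116, and 5.98 and 7.13 in litter 121. It was higher in Lats2-/- in litter 116, at least 2.16-fold lower in litter 121, where it was on no Lats2-/- array well above background, and not well above background in litter 112. Its mean ratio was 0.16 ± 1.40 (SD, n = 3 litters), and limma gave an unadjusted p of 0.799, and the sign of the mean turned with the deposited value table (-0.58).

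The CC ligands of the monocyte chemoattractant and eotaxin group, which act mainly through Ccr2 and Ccr3, held 4 genes that were higher in Lats2-/- in litter 116 (Ccl2, Ccl7, Ccl8 and Ccl11), and the first 3 of these were lower in litter 121. Ccl2 (MCP-1) was bright in all extracts, with Lats2-/- and Lats2+/+ signals of 12.83 and 13.52 in litter 112, 14.30 and 13.49 in litter 116, and 11.61 and 13.95 in litter 121. Its mean ratio was -0.74 ± 1.58 (SD, n = 3 litters), and limma gave an unadjusted p of 0.329. The Lats2+/+ signals of Ccl2 spanned 0.47 and the Lats2-/- signals 2.69 on the log2 scale.

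Ccl7 (MCP-3) had Lats2-/- and Lats2+/+ signals of 11.14 and 11.49 in litter 112, 12.46 and 10.47 in litter 116, and 8.76 and 11.32 in litter 121. Ccl8 (MCP-2) had signals of 7.18 and 7.06 in litter 112, 10.87 and 6.92 in litter 116, and 6.13 and 7.69 in litter 121. For both genes the Lats2-/- extract was the highest of the 6 in litter 116 and the lowest of the 6 in litter 121, where Ccl8 was at least 2.94-fold lower. The mean ratio of Ccl7 was -0.31 ± 2.28 and that of Ccl8 0.84 ± 2.82 (SD, n = 3 litters), and limma gave unadjusted p-values of 0.766 and 0.519. The mean of Ccl8 was 0.086 in the deposited value table. With Cxcl10, these genes gave 4 of the 18 probes with changes of at least 2-fold in opposite directions in 2 litters, against 1.83% of all probes kept. Of these, Cxcl10 was kept through Lats2+/+ alone, the genotype in which it was higher in litter 121, so that the filter helped to admit it to this count. The second probe of Ccl7 differed from the first by less than 1 in every litter. Ccl11 (eotaxin) was well above background only in the Lats2-/- extract of litter 116, at least 2.71-fold above Lats2+/+, and Ccl12 and Ccl24 were not well above background in any extract.

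Among the other CC ligands, Ccl17 and Ccl9 had the largest mean ratios. Ccl17, a ligand of Ccr4 known for attracting T cells of the Th2 type, had Lats2-/- and Lats2+/+ signals of 6.25 and 6.42 in litter 112, 9.11 and 6.65 in litter 116, and 10.14 and 7.16 in litter 121. The genotypes were over 2 apart (log2) in litters 116 and 121. In litter 112 neither extract counted as above background (0 of 2 Lats2-/- arrays and 1 of 2 Lats2+/+ arrays were), so that the ratio there describes the background. The mean ratio was 1.76 ± 1.69 (SD, n = 3 litters), or 3.38-fold, with an unadjusted p of 0.0722 in limma. Ccl9, a ligand of Ccr1, had signals of 9.57 and 9.35 in litter 112, 10.17 and 7.66 in litter 116, and 12.56 and 11.25 in litter 121. It was higher in Lats2-/- in every litter, but its Lats2+/+ signals spanned 3.58 and overlapped with those of Lats2-/-, and the mean ratio of 1.34 ± 1.14 (SD, n = 3 litters), or 2.54-fold, had an unadjusted p of 0.0531 in limma. Ccl17, Ccl9, Cxcl1, Cx3cl1 and Cxcl12 gave 6 of the 18 probes that moved one way by at least 2-fold in 2 or more litters, against 2.17% of all. Of these, Cxcl1 was kept through Lats2-/- alone, the genotype in which it was higher, so that the filter helped to admit it to this count.

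Ccl5 (RANTES), known for attracting T cells and monocytes, stood out in 1 litter. It was at 9.20 in the Lats2-/- extract of litter 116, and between 6.22 and 6.50 in the other 5 extracts. The ratio of 2.70 in that litter stood against 0.01 in litter 112 and -0.11 in litter 121, and the mean of 0.87 ± 1.59 (SD, n = 3 litters) had an unadjusted p of 0.267 in limma. In litter 112 neither Ccl5 extract counted as above background, and in litter 121 the Lats2-/- extract did not, so that the ratios there say little beyond background. The other probe gave at least 3.56-fold in litter 116. Ccl6, a close relative of Ccl9, was above background in both extracts of litter 121, at 8.48 in Lats2-/- and 6.54 in Lats2+/+, and in no other. Ccl25, known for attracting thymocytes through Ccr9, had ratios of -0.94, 0.59 and -0.15 in litters 112, 116 and 121 (unadjusted p of 0.648 in limma), and Ccl27, known from the skin, 0.66, -0.31 and 0.57 (unadjusted p of 0.277 in limma). Ccl27 is annotated at near-identical copies, so that its signal may join them. Ccl19 and Ccl20 were above background in 1 extract each, with ratios between -0.03 and 0.18. Ccl1, Ccl3, Ccl4, Ccl21c, Ccl22 and Ccl28 were not well above background in any extract.

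**Figure D3:**
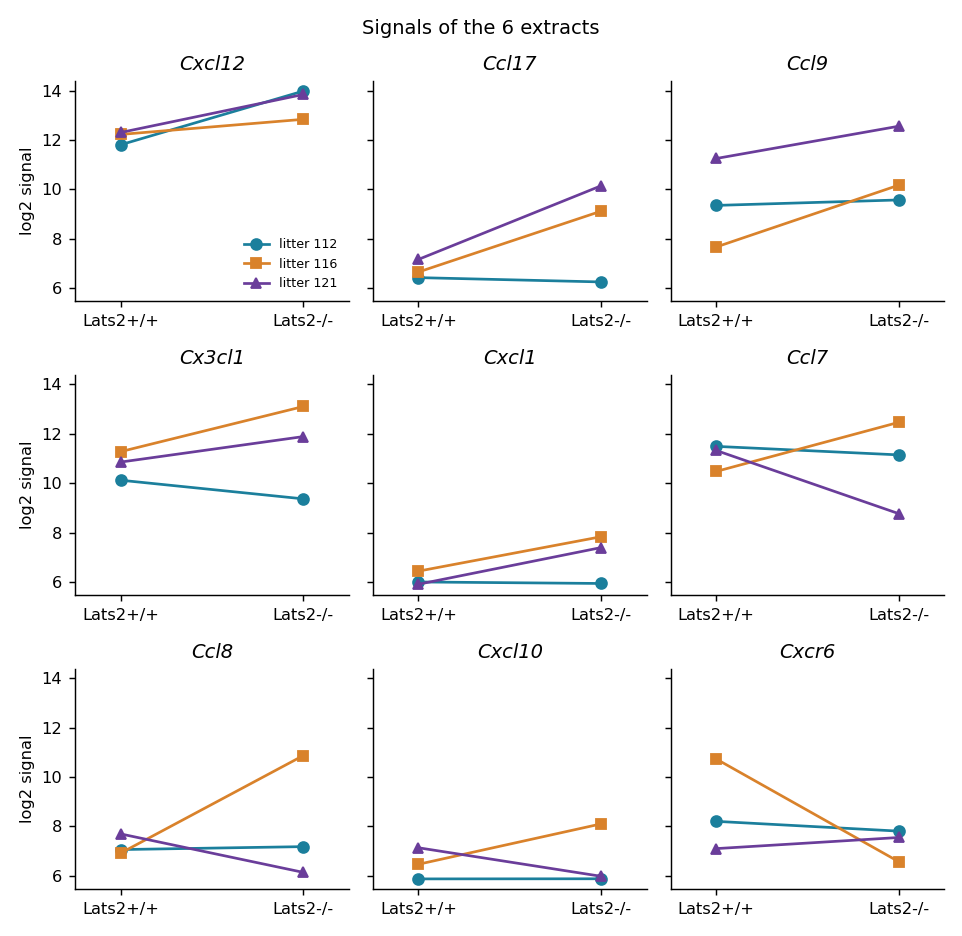
Log2 signal (vertical axis) of the Lats2+/+ and Lats2-/- extracts of each litter, joined by a line, for 9 genes. Cxcl12 is higher in Lats2-/- in all 3 litters, the litter 112 lines of Ccl17, Cxcl1 and Cxcl10 lie at background, and in Ccl7, Ccl8 and Cxcl10 the lines of litters 116 and 121 cross.

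Most receptors were not detected. Of the CC receptors reported here, only Ccr9 was above background, in 1 extract, with ratios between -0.12 and 0.06. Ccr1, Ccr1l1, Ccr2, Ccr3, Ccr4, Ccr6, Ccr7, Ccr8 and Ccr10, and of the CXC receptors Cxcr3, were not well above background in any extract. Cxcr4, the signalling receptor for Cxcl12, was dim, with signals between 6.27 and 6.60 on the probe above background in an extract. Cxcr7 (now Ackr3), which binds Cxcl12 and removes it, had Lats2-/- and Lats2+/+ signals of 7.83 and 7.96 in litter 112, 8.04 and 8.29 in litter 116, and 11.37 and 8.32 in litter 121. It was higher in 1 litter only, by 3.05 on the log2 scale, and its mean of 0.89 ± 1.87 (SD, n = 3 litters) had an unadjusted p of 0.326 in limma. Cxcr6, the receptor for Cxcl16, had signals of 7.80 and 8.20 in litter 112, 6.57 and 10.73 in litter 116, and 7.55 and 7.10 in litter 121. The Lats2+/+ extract of litter 116 stood apart from the other 5, while the Lats2-/- extract of that litter was well above background on 1 of its 2 arrays. The mean ratio of -1.37 ± 2.45 (SD, n = 3 litters) had an unadjusted p of 0.257 in limma.

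The litters differed in how many of the 18 probes moved. In litter 112, 2 were at least 2-fold higher in Lats2-/- (both Cxcl12), against 2.54% of all probes kept, and 0 were lower, against 1.23%. In litter 116, 9 probes of 8 genes were higher, against 4.59% of all, and 1 (Cxcr6) was lower, against 3.12%. In litter 121, 7 probes of 6 genes were higher, against 3.38%, and 5 probes of 4 genes (Ccl2, Ccl7, Ccl8 and Cxcl10) were lower, against 2.7%. The filter helped to admit some of these: Cxcl1, higher in litters 116 and 121, was kept through Lats2-/- alone. Likewise Cxcl10, lower in litter 121, was kept through Lats2+/+ alone. The median size of the ratio over the 15 genes, regardless of sign, was 0.22, 1.63 and 1.31 in litters 112, 116 and 121, beside 0.21, 0.26 and 0.20 over all genes kept. In litter 112, however, Ccl17, Ccl5, Cxcl1, Cxcl10 and Cxcl16 counted as above background in neither extract, so that their ratios there describe the background.

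Many of the ligand genes lie next to each other, and their ratios are given by block as a description, since the likeness of neighbours was not tested. On chromosome 11 (positions in mm8), the first block runs from Ccl2 (chr11:81853343-81853402) to Ccl1 over 139.7 kb, and Ccl2, Ccl7 and Ccl8 had ratios of 0.81, 1.99 and 3.95 in litter 116, where Ccl11 was at least 2.71-fold higher. In litter 121 Ccl2 and Ccl7 had ratios of -2.34 and -2.56, and Ccl8 was at least 2.94-fold lower. The second block on that chromosome starts with Ccl5 (chr11:83341989-83342048), and Ccl5 and Ccl9, 48.9 kb apart, had ratios of 2.70 and 2.51 in litter 116, where Ccl6 was above background in neither extract. In litter 121 Ccl9 and Ccl6 had ratios of 1.31 and 1.94, while Ccl5 had -0.11, with its Lats2-/- extract not counted as above background. On chromosome 5, Cxcl5 (chr5:91836379-91836438), Cxcl4, Cxcl15 and Cxcl1 lie within 131.6 kb. In litter 121 Cxcl15 had a ratio of 3.64, and for the other 3 genes, whose Lats2+/+ signal was on no array well above background, the ratio is only bounded, at no less than 27.0-fold for Cxcl5, 2.27-fold for Cxcl4 and 2.54-fold for Cxcl1. In litter 116 Cxcl1 had 1.39, with Lats2+/+ well above background on 1 of 2 arrays, and the other 3 genes were not well above background in either extract. On chromosome 8, Cx3cl1 and Ccl17 lie within 61.1 kb of Ccl22 and were higher in both litters 116 and 121, while Ccl22 itself was not well above background. Other genes stood apart from their neighbours. Ccl12 in the first block of chromosome 11 was at background, and Cxcl10 was seen beside Cxcl9 and Cxcl11, which were at background. The members of a block are similar in sequence, so that probes of neighbours may share some signal.

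**Figure D4:**
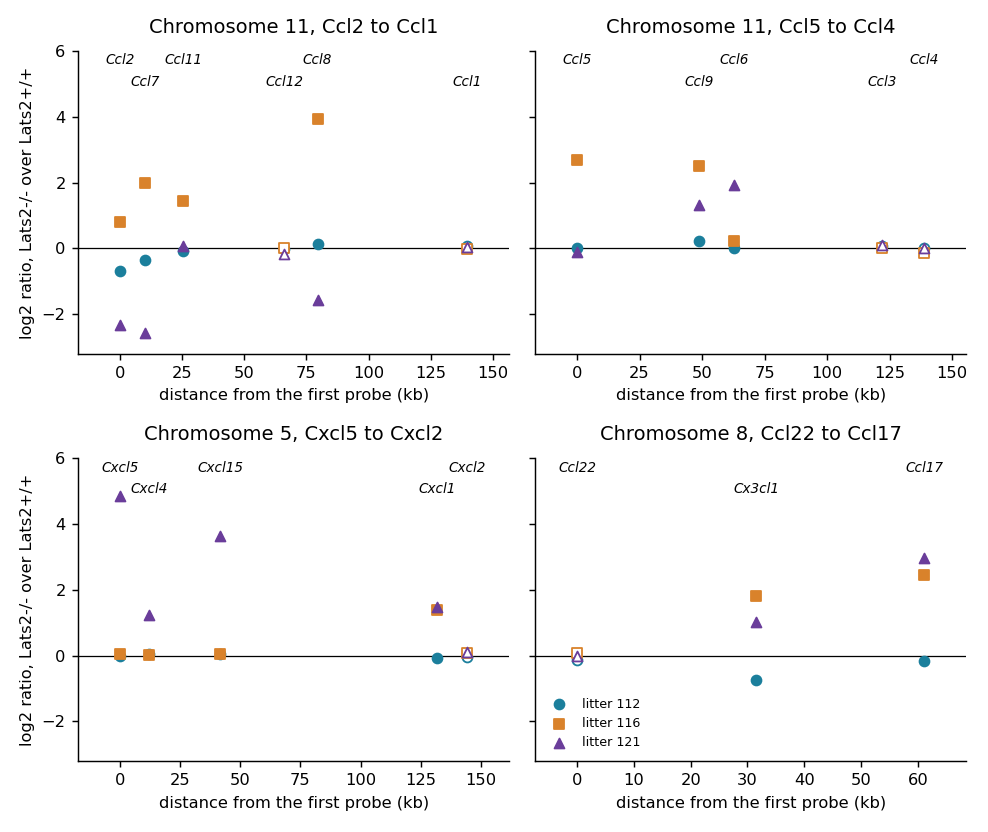
Log2 ratio of Lats2-/- over Lats2+/+ (vertical axis) against the distance from the first probe of a block in kb (horizontal axis), for 4 groups of neighbouring ligand genes and 3 litters. Filled points are genes above background in at least 1 extract and open points those in none; orange squares (litter 116) reach 3.95 in the first chromosome 11 block and purple triangles (litter 121) reach 4.85 in the chromosome 5 block, a value of Cxcl5 against a Lats2+/+ signal not well above background.

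The genes around the chemokines were counted in 5 lists, against 4.15% of all genes kept that were higher and 3.45% that were lower at an unadjusted p of 0.05 in limma. The 47 genes kept of the NF-kappaB pathway and its inducible genes had median ratios of 0.15, 0.31 and -0.11 in litters 112, 116 and 121. In litter 121, 21 of the 47 were higher. At that unadjusted p, 5 of the 47 were higher and 1 lower. Those were Il33, an alarmin cytokine (mean ratio 2.64 ± 1.08, unadjusted p of 0.00517 in limma, n = 3 litters), Tnfaip3, a feedback inhibitor of the pathway (1.26), Irak2, a kinase of the IL-1 receptor complex (0.91), the receptor Il1r1 (0.74), the subunit Nfkb1 (0.42), and, lower, the matrix protease Mmp3 (-3.11). Il33 had ratios of 1.41, 3.43 and 3.07 in litters 112, 116 and 121. Its ratio was above 2-fold in every litter. Il33 was above background in 5 of the 6 extracts, with dim Lats2+/+ signals of 6.32, 7.10 and 6.58 in litters 112, 116 and 121. The other 4 higher genes also had positive ratios in each litter, which selection by p over the same 3 litters favours.

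Of 24 interferon-inducible genes, 1 was higher (Irgm1, a GTPase, mean ratio 0.45) and 0 were lower. By litter they were not still: litter 112 had a median ratio of 0.16, litter 116 of 0.30 and litter 121 of -1.04, and in the last 3 of the 24 were higher. Isg15 had ratios of 0.01, 1.75 and -2.10 in litters 112, 116 and 121, beside 0.01, 1.63 and -1.16 for Cxcl10. Other genes of the list were unlike Cxcl10 in litter 116, with 0.35 for Ifit1, 0.055 for Ifit3 and -0.41 for Ifit2, and 19 of the 24 were higher there. Of 35 genes of receptor signalling, Gng2, a G protein gamma subunit, was higher (mean ratio 1.19), and the kinase Ptk2b (-1.10) and the Rac activator Tiam1 (-0.94) were lower. Of 27 enzymes and surface binders that cleave or hold chemokines, 0 were higher and Mmp3, also in the NF-kappaB list, was lower. Of 8 kept genes of a list of chemokines, chemokine-like genes and receptors named outside the rule, none of them an atypical or decoy receptor, Ppbp, a platelet chemokine, was higher (mean ratio 0.68), and 0 were lower. Ppbp was above background in the 3 Lats2-/- extracts and in no Lats2+/+ extract, so that it was kept through Lats2-/- alone. None of these list genes passed the adjusted threshold, with an adjusted p of 0.711 in limma for each one past the unadjusted threshold.

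Markers of other cell types were looked at beside these values. Of 20 leukocyte and macrophage markers, 9 were above background in at least 1 extract, and the defining Ptprc, Adgre1 and Itgam were in none. The summed linear signal of the 8 kept ones was 1122, 1542 and 4644 for Lats2-/- and 1184, 2673 and 1146 for Lats2+/+ of litters 112, 116 and 121. The extract that had Cxcl5, Cxcl15 and Cxcr7 at their highest, Lats2-/- of litter 121, also had the highest of these sums, with ratios of 3.40 for Lyz2 and 2.70 for Lyz1. These were the only 2 of the 8 kept markers that were higher in Lats2-/- there, and the median over the 8 was -0.07, with -0.74 for Cd14 and -0.16 for Cd68. That extract had the lowest fibroblast sum of the 6, and 2 of the 14 fibroblast markers were higher in Lats2-/- of that litter. The Lats2-/- extract of litter 116, where Ccl7, Ccl8 and Ccl5 were at their highest, had the highest fibroblast sum (650200, next to 648700 in Lats2+/+ of litter 121), and 12 of the 14 markers were higher there than in Lats2+/+. Of 8 lymphocyte markers 2 were above background, of 8 endothelial markers 3, and of 7 epithelial markers 6. Of the 3 epithelial markers kept, Krt19 had ratios of 2.42, 0.37 and 1.83 in litters 112, 116 and 121, while Krt5 and Krt14 stayed between -0.08 and 0.07. The part of these differences in the chemokine ratios was not tested.

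**Figure D5:**
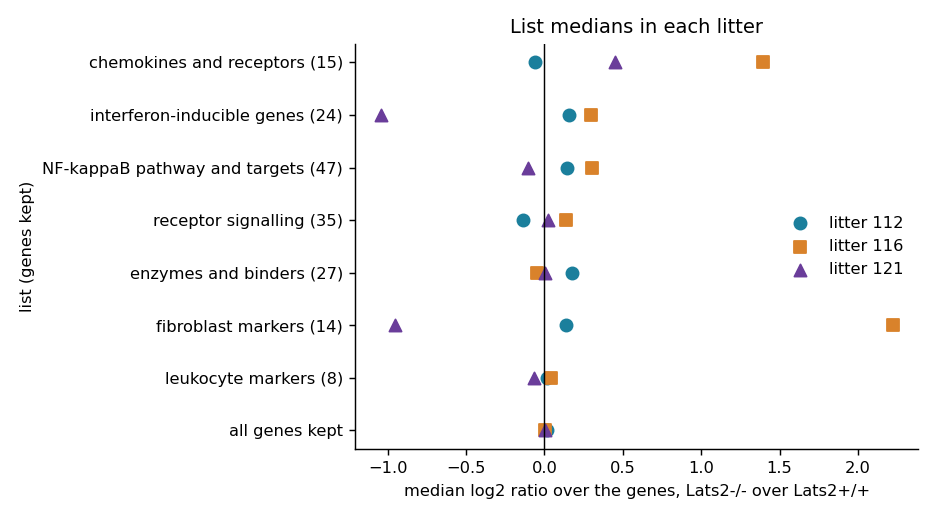
Median log2 ratio of Lats2-/- over Lats2+/+ (horizontal axis) over the kept genes of each list (vertical axis, number of genes in parentheses), with 1 point for each litter. In litter 121 the interferon-inducible genes and the fibroblast markers are near -1, and in litter 116 the fibroblast markers lie farthest to the right. The chemokine points are no measure of direction, since Cxcl1 and Cxcl16 were kept through Lats2-/- alone, and Ccl5 and Cxcl10 through Lats2+/+ alone.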

How the data were processed

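RNA of 3 pairs of MEFs was hybridised on 8 two-colour Agilent arrays (design 14868) with dye swaps. The deposited scanner files hold each spot's intensity and local background, not normalized, and log10 ratios of red over green, dye normalized by the authors with Agilent Feature Extraction (10.7.3.1 in the file headers, 10.5.1.1 in the submitters' processing notes). The deposited value table holds log10 ratios; it matched those of the scanner within 0.00500 once turned to Lats2-/- over Lats2+/+. Flags in the same files mark spots well above background.

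Intensities were background corrected with normexp (offset 50) in limma 3.58.1 (R 4.3.3), normalized by loess within arrays and, for signals of single extracts, by Aquantile between arrays. No spot was saturated, and 860 outlier spots were dropped. Arrays of a litter share 2 extracts and were averaged, so n is 3 litters. limma's moderated test of the litter ratios against 0 was two-sided, with Benjamini-Hochberg adjustment. An extract counts as above background if most of its arrays are. The brightest kept probe stands for a gene. Every member above background is named, and 1 other gene of the rule is not reported here; the 6 signals are written out for genes past an unadjusted p of 0.05 or at least 2-fold in 2 litters, and for some others chosen after their values were seen. "At least" sets the brighter extract against the lowest signal well above background, or the dim probe's own if higher, per array. List genes at an unadjusted p under 0.05 are named, and Isg15 and the marker genes named were chosen after their values were seen. Members and lists were chosen with earlier results of these data known. The script was tested on simulated data. Precision is limited by having 3 litters, and which cultures gave the extracts is given only as clone names. Current symbols came from RefSeq (56 of 60 probes by accession, 4 by symbol). Alternatives were another offset, the processed and tabulated ratios, other filters, random blocks for litter or slide, an unpaired fit, a t-test, and each litter left out.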

Additional observations from a re-analysis of the deposited data

How the results depend on the processing

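No member passed the adjusted threshold in the test over 3 litters, and none did under any filter, offset, ratio source or left-out litter tried, in the unpaired fit, with the slide as a random block or by the methods' t-test. Taking the 8 arrays with the litter as a random block, with or without a dye term, put both Cxcl12 probes past it (2 in each; adjusted p of 0.0366 and 0.0211 in limma for the brighter probe), but those fits count arrays of the same extracts, and 1.51% and 0.897% of all probes kept passed in them, against 0.0% over 3 litters. The fit with the slide as a random block also counts arrays of the same extracts, and 3.17% of all probes kept passed in it. Member probes at an unadjusted p under 0.05 (2 over 3 litters) numbered 5 with the litter as a random block, 5 with the dye term added, 6 with the slide as a random block and 0 by the methods' t-test; those also at least 2-fold numbered 4, 4, 6 and 0. Over all probes kept the share at that p was 6.84% over 3 litters, and 13.2%, 12.6%, 17.8% and 5.95% in these 4 settings. Of all 22642 probes kept, those also at least 2-fold numbered 189 over 3 litters, and 414, 399, 441 and 71 in these 4 settings. Leaving out 1 litter gave 1 to 6 for either count, 6 without litter 112 (Ccl17, Ccl9, Cx3cl1, Cxcl12 and Cxcl1, the last kept through Lats2-/- alone) and 1 without litter 121, with 5.06%, 5.53% and 6.43% of all probes at that p without litters 112, 116 and 121. In the same order, 352, 260 and 373 of all 22642 probes kept were also at least 2-fold. The median mean ratio over the member genes was 0.05 without litter 116, 1.08 without litter 112 and 0.37 with the slide as a random block. Genes of the pathway lists at an unadjusted p under 0.05 (11 over 3 litters) numbered 35 with the litter as a random block, 30 with the dye term added, 39 with the slide as a random block, 6 with no replicate block (the unpaired fit; 2.45% of all probes, the other shares as above) and 2 by the methods' t-test, and 11 to 17 with a litter left out, 17 without litter 121.

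The sign of a mean ratio often rested on 1 litter. With 1 litter left out at a time, the mean ranged from -1.52 to 0.059 for Ccl2, -1.45 to 0.82 for Ccl7, -0.72 to 2.03 for Ccl8, -0.047 to 1.36 for Ccl5, -0.54 to 0.22 for Ccl25, -0.57 to 0.82 for Cxcl10, -2.28 to 0.027 for Cxcr6 and -0.19 to 1.46 for Cxcr7. The sign turned without litter 121 for Ccl2, Ccl7 and Cxcr7, without litter 116 for Ccl5, Ccl8, Cxcl10 and Cxcr6, and without litter 112 for Ccl25. Cxcl10 also turned with the processed signals (-0.61), the deposited value table (-0.58) and the slide as a random block (-0.17). Means that kept their sign but moved by over 1.5 times were those of Cxcl1 (2.91) and Ccl8 (0.089) with the processed signals, and of Ccl8 (0.24), Ccl7 (-0.87), Ccl2 (-1.14) and Cxcr7 (1.43) with the slide as a random block, among others. The cause was not tested. The means of Cxcl12, Ccl17, Ccl9, Cxcl1, Cx3cl1, Ccl27 and Cxcl16 kept their sign under every alternative run, but not always their size: with 1 litter left out they ranged from 1.08 to 1.86 for Cxcl12, 1.14 to 2.72 for Ccl17, 0.76 to 1.91 for Ccl9, 0.67 to 1.44 for Cxcl1, 0.14 to 1.43 for Cx3cl1, 0.13 to 0.62 for Ccl27 and 0.050 to 0.092 for Cxcl16, and Ccl27 had 0.83 and Cxcl16 0.32 with the processed signals. For dim genes the distance to background limits what a ratio can show.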
